A study of Homo sapiens with 6 samples.

Results

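MYC, MAX and the factors that share MAX or its relative MLX as a partner were followed as a group of 10 genes: MYC, MAX, MXD1, MXD3, MXD4, MXI1, MNT, MLX, MLXIP and MGA. Members were chosen by gene symbol in the deposited expression table, which lists 63241 genes. All 10 were found, and all 10 were among the 11417 genes tested, those with a mean of at least 1 FPKM (fragments normalised for gene length and sequencing depth) over the 6 libraries. The study asked how USP43, a deubiquitinating enzyme, acts on lipid metabolism in bladder cancer cells. RNA was sequenced from T24, an established human bladder cancer line. In 3 libraries, called siNC, the cells had received a control small interfering RNA and the genotype is given as WT, and in the other 3, called siUSP43, they had received one directed at USP43 and the genotype is given as USP43 knockdown. Cells of both groups were of the same line and grown in the same serum-containing medium, and all 6 samples carry the same batch label. Whether the replicate numbers stand for separate cultures is not stated, and the p-values therefore rest on a spread between libraries that may be technical. Nor do the labels say whether the siUSP43 samples received 1 duplex or several, how long the cells were transfected, or what USP43 protein level was reached.

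MYC is a basic helix-loop-helix leucine zipper transcription factor that binds DNA as a dimer with MAX, mostly at the E-box CACGTG, and raises the expression of genes for growth, ribosome assembly and metabolism. MXD1, MXD3, MXD4, MXI1 and MNT take the same partner and the same sites but bring in the SIN3 and histone deacetylase corepressor, so that MYC and the MXD group are held to work against each other. MGA is a very large MAX partner and part of a Polycomb complex called PRC1.6. MLX stands beside MAX: it pairs with MLXIP (also called MondoA), a sensor of sugar phosphates that acts on TXNIP and ARRDC4, and it can pair with MXD1, MXD4 and MNT as well.

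The DNA words that these dimers read can be seen in promoters of the network's own genes and of the genes that MLXIP acts on. RefSeq promoter windows (GRCh38.p14) were available for 9 of the 10 members, MYC being the tenth, in 14 windows. In the 250 bases before the gene start, 3 members, MXD4, MNT and MLX, held CACGTG, a word that reads the same on both strands. Of all 35116 promoter windows of that length, 6.34% held it. That share counts windows rather than genes and takes in genes that were not tested, so the count of members cannot be read against it. MXD4, MNT and MLX are shown because they are the members with a complete E-box, which is in capitals.
MXD4 (chr4:2262110-2262359, minus strand): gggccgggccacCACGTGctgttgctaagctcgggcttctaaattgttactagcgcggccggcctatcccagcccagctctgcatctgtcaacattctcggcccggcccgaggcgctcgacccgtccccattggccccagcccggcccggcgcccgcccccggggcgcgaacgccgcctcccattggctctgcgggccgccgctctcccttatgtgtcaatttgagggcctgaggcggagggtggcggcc
MNT (chr17:2401061-2401310, minus strand): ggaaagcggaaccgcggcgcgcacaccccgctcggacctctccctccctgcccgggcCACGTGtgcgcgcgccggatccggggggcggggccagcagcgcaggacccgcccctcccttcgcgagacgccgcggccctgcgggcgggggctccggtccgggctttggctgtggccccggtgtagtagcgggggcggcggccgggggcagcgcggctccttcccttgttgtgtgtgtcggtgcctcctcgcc
MLX (chr17:42566850-42567099, plus strand): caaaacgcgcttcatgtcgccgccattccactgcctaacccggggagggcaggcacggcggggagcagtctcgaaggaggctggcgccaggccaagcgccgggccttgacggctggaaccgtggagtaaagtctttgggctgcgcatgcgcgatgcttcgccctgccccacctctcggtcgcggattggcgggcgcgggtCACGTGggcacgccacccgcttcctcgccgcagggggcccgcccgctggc
Counted to the gene start of the RefSeq window, the E-box began 238 bases before it in MXD4, 193 in MNT and 50 in MLX. For MNT and MLX that start differs from the one in the gene coordinates given below, which lies inside the window. A match is a description of the letters, and binding was not measured.

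MLXIP with MLX is known to read a pair of E-box-like words set 5 bases apart, the carbohydrate response element. The promoter of TXNIP, a brake on glucose uptake, is shown with that pair in capitals, and the promoter of ARRDC4, a related arrestin-domain gene, with each CACGNG in capitals on either strand.
TXNIP (chr1:145996580-145996829, minus strand): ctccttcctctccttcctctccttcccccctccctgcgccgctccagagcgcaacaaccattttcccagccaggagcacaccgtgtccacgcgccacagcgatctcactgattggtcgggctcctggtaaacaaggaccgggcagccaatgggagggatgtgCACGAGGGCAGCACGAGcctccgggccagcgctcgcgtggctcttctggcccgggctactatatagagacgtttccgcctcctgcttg
ARRDC4 (chr15:97960453-97960702, plus strand): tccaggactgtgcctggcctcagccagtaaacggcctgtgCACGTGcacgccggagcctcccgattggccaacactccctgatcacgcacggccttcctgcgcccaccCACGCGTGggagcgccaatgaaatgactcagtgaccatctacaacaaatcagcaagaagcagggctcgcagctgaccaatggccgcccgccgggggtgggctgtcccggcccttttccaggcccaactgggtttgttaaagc
A pair of CACGNG words with 5 bases between them, searched on both strands, were found in 16 of the 35116 windows (0.0456%), the TXNIP window among them, 88 to 72 bases before the gene start. A single CACGNG, which includes CACGTG, was in 26.7% of windows.

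Library totals ran from 21430574 to 25577200 gene counts, and the members had 148 to 2801 counts in a library. No pair of libraries within a group was as alike as counting noise would make it (chi-square per degree of freedom 2.28 to 14.9). USP43 itself was at 2.36, 2.09 and 2.08 FPKM in siNC and 1.02, 0.67 and 0.80 in siUSP43. Of 11 urothelial markers, 8 were below 1 FPKM in every library, among them the 4 uroplakins, KRT5, GATA3 and TP63, while KRT7, PPARG and FOXA1 were above it. The summed level of the 11, most of it KRT7, was 241.8 to 249.2 FPKM in siNC and 179.6 to 196.3 in siUSP43. KRT7 and FOXA1 fell (log2 fold changes -0.38 and -1.24) and PPARG rose (0.50). All 5 markers of a mesenchymal-type carcinoma line, VIM, CD44, ZEB1, CDH2 and AXL, were above 1 FPKM, and their sum was 640.3 to 657.4 FPKM in siNC and 520.0 to 551.7 in siUSP43, with AXL and CD44 at log2 fold changes of -2.08 and -0.37. The part of these marker shifts in the members' values was not tested. Summed leukocyte, endothelial and fibroblast markers stayed at or below 1.57 FPKM in every library.

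Of the 10 members 3 fell (MXD4, MLXIP and MGA), 1 rose (MNT) and 6 did not pass (MYC, MAX, MXD1, MXD3, MXI1 and MLX), by edgeR's quasi-likelihood test at a Benjamini-Hochberg adjusted p under 0.05 over all tested genes. So 40.0% of members were called, against 56.1% of all tested genes (28.0% rose and 28.1% fell). With upper quartile scaling the count was 0 that rose and 3 that fell. Changes were small: the median size of the members' log2 fold changes was 0.125 against 0.236 over all tested genes, and 0 members reached a log2 fold change of 1. FPKM values of the groups did not overlap for 8 members, against 62.2% of all tested genes. Here and below, fold changes are siUSP43 over siNC, and since the samples are bulk RNA, fewer cells expressing a gene and less RNA per cell cannot be told apart.

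**Figure D1:**
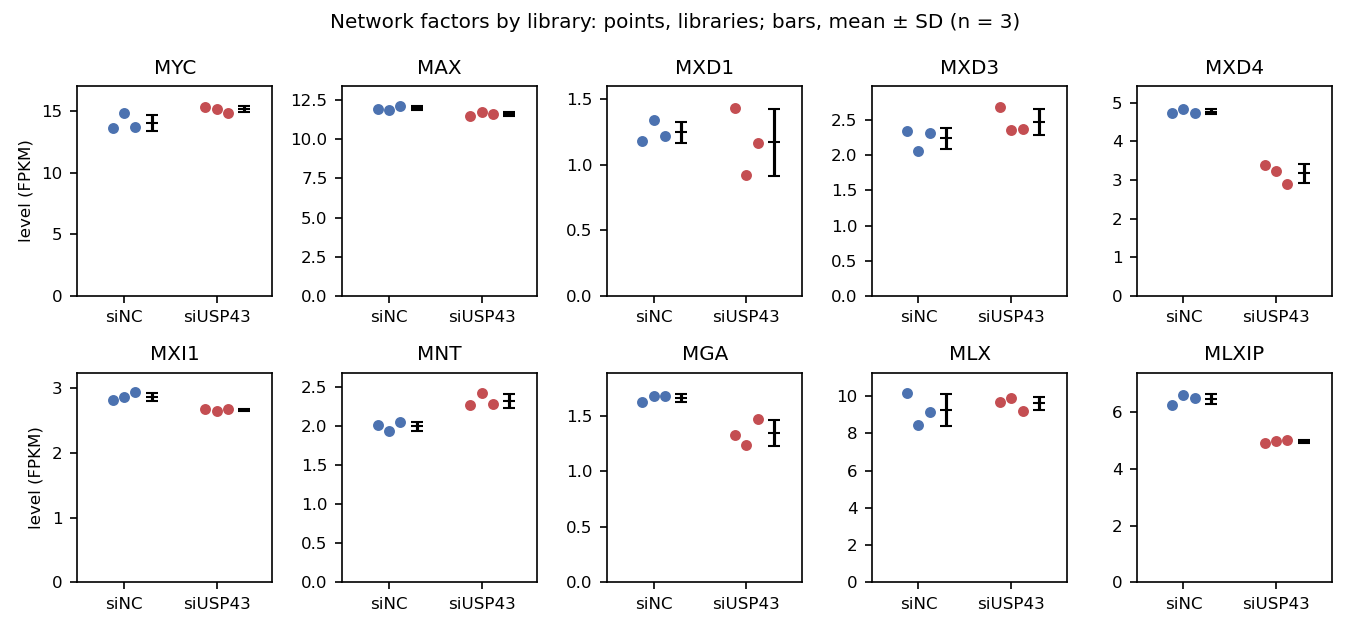
Level in FPKM (y axis, from 0, each panel on its own scale) of the 10 network factors in the siNC (blue) and siUSP43 (red) libraries, 1 point per library with the mean ± SD (n = 3) beside it. MXD4, MLXIP and MGA lie lower in all 3 siUSP43 libraries, MNT lies higher, and the points of MXD1 and MLX overlap between groups.

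MYC (ENSG00000136997, chromosome 8), the growth-promoting arm, was at 13.61, 14.80 and 13.73 FPKM in siNC and at 15.35, 15.17 and 14.86 in siUSP43. All 3 siUSP43 values lay above all siNC values, but the gap between 14.80 and 14.86 was smaller than the spread within either group. In the edgeR fit MYC had a log2 fold change of 0.09 (SE 0.05, 95% interval -0.02 to 0.20) and did not pass (Benjamini-Hochberg adjusted p = 0.137). That interval leaves out a doubling or a halving of the mRNA, and 79.6% of tested genes had a larger log2 fold change in size. MYC overlaps CASC11 on the other strand, which averaged 3.33 counts a library. The relatives MYCN and MYCL stayed at or below 0.02 and 0.08 FPKM in every library, so MYC was the only one of the 3 above 1 FPKM. MYC protein, whose level is set largely by its turnover, was not measured.

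MAX (ENSG00000125952, GRCh38 chromosome 14, 65006174 to 65102695, minus strand), the partner that MYC, the MXD proteins, MNT and MGA share, was at 11.95, 11.88 and 12.14 FPKM in siNC and 11.49, 11.74 and 11.59 in siUSP43. The groups did not overlap, with siUSP43 on the lower side, but the difference was 0.06 on the log2 scale (log2 fold change -0.06, SE 0.05, 95% interval -0.17 to 0.04) and did not pass (edgeR, Benjamini-Hochberg adjusted p = 0.265). MAX overlaps FNTB on the other strand, which was tested and fell (log2 fold change -0.49), and since the strand setting of the counting is not given, reads of the 2 cannot be told apart there.

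MXD4 (ENSG00000123933, chromosome 4, 2247432 to 2262109, minus strand), a MAX partner that represses through SIN3, changed most in size among the members. It stood at 4.72, 4.84 and 4.73 FPKM in siNC and at 3.38, 3.23 and 2.90 in siUSP43. The siNC libraries were within 0.12 FPKM of each other, and each siUSP43 library was below all of them. MXD4 fell by 34.2%, or -0.60 on the log2 scale (SE 0.07; edgeR, Benjamini-Hochberg adjusted p = 1.62e-05). Among all tested genes 14.2% had a larger log2 fold change in size. No tested gene overlaps MXD4 in the table's coordinates.

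The other 3 MXD genes did not pass the test. MXI1 (ENSG00000119950, chromosome 10, 110207605 to 110287365), which encodes a repressor of the same family, was at 2.81, 2.86 and 2.93 FPKM in siNC and 2.68, 2.65 and 2.67 in siUSP43. Its groups did not overlap, siUSP43 being lower, and the log2 fold change was -0.12 (SE 0.07; edgeR, Benjamini-Hochberg adjusted p = 0.145). MXD3 (ENSG00000213347, chromosome 5, 177301461 to 177312757), the family member linked to S phase, was at 2.06 to 2.34 FPKM in siNC and 2.36 to 2.68 in siUSP43. Its log2 fold change was 0.13 (SE 0.09; edgeR, Benjamini-Hochberg adjusted p = 0.265), and 0.07 without siNC replicate 2 or without siUSP43 replicate 1. MXD3 overlaps RAB24 on the same strand and PRELID1 on the other, with log2 fold changes of -0.80, which passed, and 0.08, which did not, so its reads are of uncertain origin.

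MXD1 (ENSG00000059728, chromosome 2, 69897688 to 69942945), known for its rise as cells differentiate, was the lowest member, at 1.18, 1.34 and 1.22 FPKM in siNC and 1.43, 0.92 and 1.17 in siUSP43. The groups overlapped fully, and the siUSP43 libraries spanned the highest and the lowest of the 6 values. The log2 fold change was -0.10 with a 95% interval of -0.41 to 0.21, the widest of the 10, and it was 0.04 without siUSP43 replicate 2, the library with 0.92 FPKM. MXD1 overlaps SNRNP27, a splicing factor gene on the same strand at a mean of 22.7 FPKM. A difference of MXD4 from the other MXD genes was not tested, and their intervals give it only as description: that of MXD4, -0.75 to -0.46, does not meet that of MXI1, -0.27 to 0.03, of MXD3, -0.08 to 0.33, or of MXD1.

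MNT (ENSG00000070444, chromosome 17, 2384073 to 2401104, minus strand), the broadly expressed repressor of the group, was at 2.01, 1.94 and 2.05 FPKM in siNC and 2.27, 2.42 and 2.28 in siUSP43. Every siUSP43 library was above every siNC library. MNT rose by 14.7%, or 0.20 on the log2 scale (SE 0.07; edgeR, Benjamini-Hochberg adjusted p = 0.0251). MNT no longer passed in 7 of 15 alternative settings, among them DESeq2 (adjusted p = 0.0519), the fit with a replicate block (edgeR, adjusted p = 0.0802), and the fits without siNC replicate 1, siNC replicate 2 or siUSP43 replicate 2 (edgeR, adjusted p = 0.0711, 0.1 and 0.0735), while the log2 fold change stayed between 0.15 and 0.22.

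**Figure D2:**
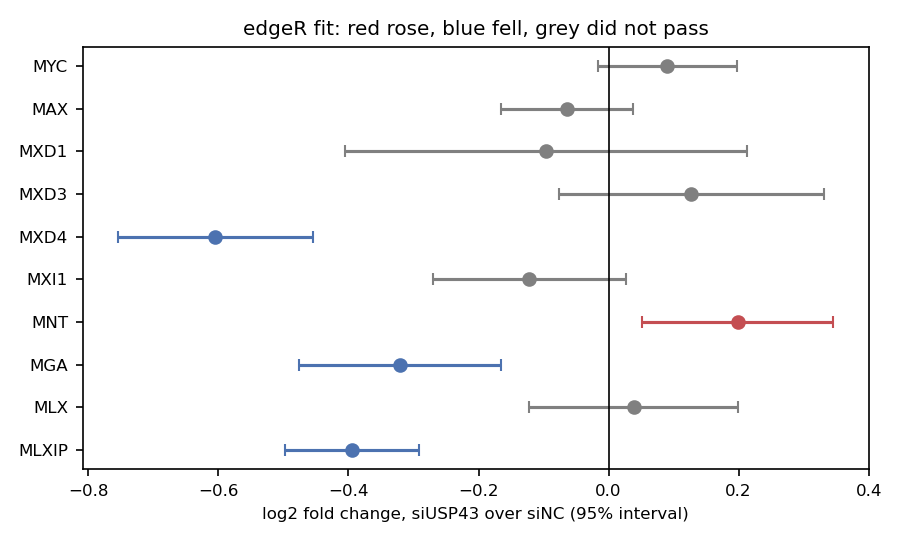
Log2 fold change of siUSP43 over siNC (x axis) for the 10 factors (y axis), with 95% intervals from the edgeR fit. The intervals of MXD4, MLXIP and MGA lie below 0, that of MNT lies above 0, and the other 6 include 0.

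Set side by side per length, the repressors came near the level of MYC only as a sum, each alone being well below it. The summed level of MXD1, MXD3, MXD4, MXI1 and MNT was 13.06, 13.04 and 13.24 FPKM in siNC and 12.44, 11.58 and 11.39 in siUSP43. Divided by MYC it was 0.960, 0.881 and 0.964 in siNC and 0.810, 0.763 and 0.767 in siUSP43. Every siUSP43 library thus had a lower ratio of these FPKM values than every siNC library. MXD4 made up 36.3% ± 0.714 of the sum in siNC and 26.8% ± 1.25 in siUSP43 (SD, n = 3 each). Without MXD4 the sum was 8.34, 8.20 and 8.51 FPKM in siNC and 9.06, 8.35 and 8.49 in siUSP43, and the groups overlapped. These sums were chosen with the members' values known and are given with no test.

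**Figure D3:**
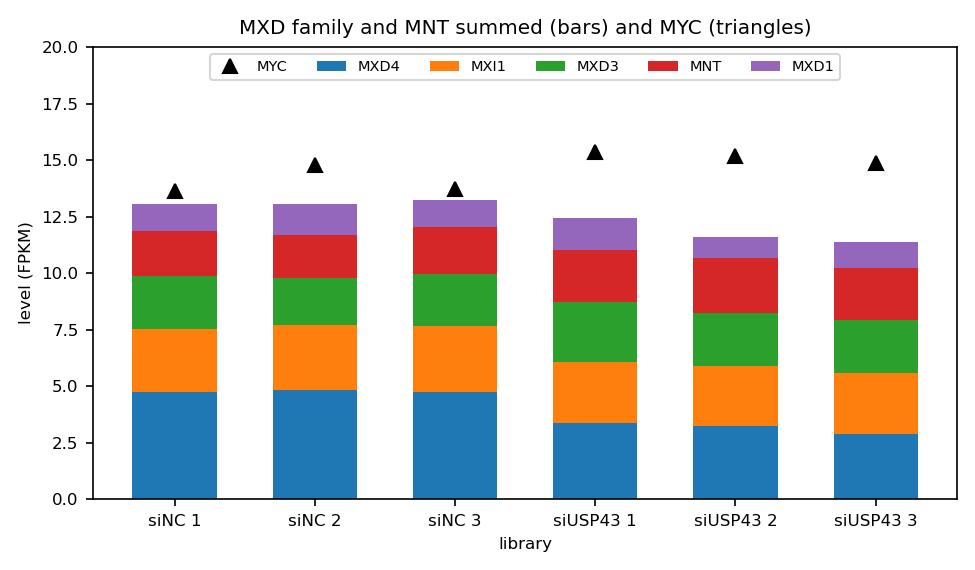
Level in FPKM (y axis) in each library (x axis) of MXD4, MXI1, MXD3, MNT and MXD1, stacked as bars, and of MYC as triangles. The MXD4 part of the bar is shorter in the siUSP43 libraries, while the MYC triangle lies between 13.61 and 15.35 FPKM throughout.

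The order of the 10 levels was the same in both groups by mean FPKM: MYC, MAX, MLX, MLXIP, MXD4, MXI1, MXD3, MNT, MGA and MXD1. In siNC no pair of neighbours in that order overlapped in its library values. In siUSP43 MXI1 overlapped MXD3, MXD3 overlapped MNT, and MGA overlapped MXD1. FPKM here divides by all annotated exonic bases of a gene, 20074 for MGA and 4255 for MLX, so a gene with many exons that these cells do not use is placed too low.

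MLXIP (ENSG00000175727, chromosome 12, 122078756 to 122147344, plus strand), the nutrient-sensing partner of MLX, was at 6.26, 6.61 and 6.51 FPKM in siNC and 4.92, 4.99 and 5.01 in siUSP43. The siUSP43 libraries lay within 0.09 FPKM of each other and all below siNC. MLXIP fell by 23.9%, or -0.39 on the log2 scale (SE 0.05; edgeR, Benjamini-Hochberg adjusted p = 2.51e-05). No gene overlaps MLXIP in the table's coordinates. MLX (ENSG00000108788, chromosome 17, 42567072 to 42573239, plus strand) was at 10.15, 8.44 and 9.13 FPKM in siNC and 9.70, 9.90 and 9.20 in siUSP43, with siUSP43 inside the siNC range. MLX had a log2 fold change of 0.04 (95% interval -0.12 to 0.20; edgeR, Benjamini-Hochberg adjusted p = 0.677), which was -0.02 without siNC replicate 2 and 0.11 without siNC replicate 1. MLXIPL, the liver-type relative of MLXIP that pairs with MLX, had 0 to 2 counts in a library.

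The 2 target genes of MLXIP and MLX whose promoters are shown above both fell. TXNIP was at 92.17, 90.80 and 86.98 FPKM in siNC and 56.34, 57.17 and 60.62 in siUSP43. The lowest siNC library was 26.4 FPKM above the highest siUSP43 library. For TXNIP edgeR gave a log2 fold change of -0.65, SE 0.05 (Benjamini-Hochberg adjusted p = 3.83e-07). ARRDC4 was at 3.29, 3.47 and 3.16 FPKM in siNC and 2.44, 2.51 and 3.06 in siUSP43, the third siUSP43 library lying close under the lowest siNC library. For ARRDC4 edgeR gave -0.32, SE 0.10 (Benjamini-Hochberg adjusted p = 0.0163). ARRDC4 no longer passed when siNC replicate 2 or siUSP43 replicate 1 was left out, and its adjusted p ran up to 0.0765 over the alternatives. With 28.1% of tested genes falling, 2 of 2 is a count too small to set the pair apart from other genes, and MLXIP binding was not measured.

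**Figure D4:**
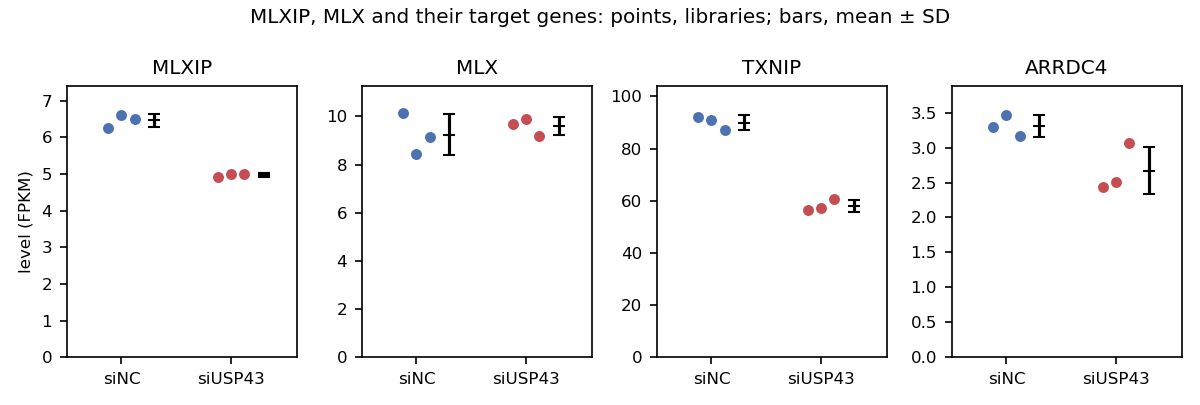
Level in FPKM (y axis, from 0, each panel on its own scale) of MLXIP, MLX, TXNIP and ARRDC4 in the siNC (blue) and siUSP43 (red) libraries, 1 point per library with the mean ± SD (n = 3) beside it. MLXIP, TXNIP and ARRDC4 lie lower in all siUSP43 libraries, and MLX does not.

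MGA (ENSG00000174197, chromosome 15, 41621134 to 41773081, plus strand) was at 1.62, 1.68 and 1.68 FPKM in siNC and 1.33, 1.24 and 1.47 in siUSP43. All siUSP43 libraries were lower. MGA fell by 19.9%, or -0.32 on the log2 scale (SE 0.07; edgeR, Benjamini-Hochberg adjusted p = 0.00229). Of 10 genes for its partners in PRC1.6, a Polycomb complex that keeps germline genes silent, 5 rose, 3 fell and 2 did not pass (28.0% of all tested genes rose and 28.1% fell), with a median log2 fold change of 0.23 against -0.01 over all tested genes. TFDP1, which pairs with E2F factors, rose by 0.76 on the log2 scale, from a mean of 34.6 to 59.3 FPKM. PCGF6, the Polycomb ring finger subunit that defines the complex, rose by 0.76 too, from 11.6 to 19.9 FPKM. YAF2, a RING1-binding subunit, rose by 0.54. RING1, an E3 ligase subunit, fell by 1.00 on the log2 scale, from 11.4 to 5.78 FPKM, while RYBP and CBX3 had log2 fold changes of -0.23 each, both past the test. The calls of these 10 genes numbered 8 in each of 15 alternatives. Of 16 germline genes known as PRC1.6 targets only TDRKH passed the level filter. TDRKH rose by 0.23 (edgeR, Benjamini-Hochberg adjusted p = 0.0263) and no longer passed in 7 of 15 alternatives, among them those without siNC replicate 1, 2 or 3 and without siUSP43 replicate 1 or 2 (adjusted p up to 0.0801). With edgeR's own count filter, 8 of the 16 were tested, of which 4 rose and 2 fell. In that fit 7869 of 16280 tested genes were called in either direction. With no filter, 15 of the 16 were tested, of which 4 rose and 3 fell, against 7907 of 33934 genes called in either direction. All of these germline genes but TDRKH averaged below 1 FPKM. Whether germline genes changed more often than other genes, or in 1 direction, was not tested.

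Genes that MYC is known to raise moved in both directions. Of 57 genes of a widely used MYC target list, mostly nucleolar and ribosome assembly genes, 54 were tested, 17 rose, 9 fell and 28 did not pass, and the median log2 fold change was 0.00 against -0.01 over all tested genes. The share that rose was 31.5% against 28.0% of all tested genes, and the share that fell 16.7% against 28.1%. The count that fell was 5 without siNC replicate 3 and ran from 5 to 12 over the 15 alternatives, that of rises from 13 to 18. NOLC1, a nucleolar chaperone of ribosome assembly, was at 42.47, 41.11 and 40.68 FPKM in siNC and 143.98, 146.49 and 150.84 in siUSP43. The lowest siUSP43 library was 3.39 times the highest siNC library. For NOLC1 edgeR gave a log2 fold change of 1.81, SE 0.04 (Benjamini-Hochberg adjusted p = 1.29e-10). TCOF1, the treacle gene of ribosomal DNA transcription, rose by 0.95 and AIMP2, a scaffold of the tRNA synthetase complex, by 0.59. In the other direction TMEM97, a sterol-responsive membrane protein gene, had a log2 fold change of -1.09, HK2, a hexokinase gene, one of -0.77, and NOP2, a ribosomal RNA methyltransferase gene, one of -0.32, and all 3 passed. Of the 45 tested list genes with a promoter window, 13 held CACGTG in the 250 bases before the start. By call these were 4 of 12 that rose, 2 of 9 that fell and 7 of 24 that did not pass. The share of windows given above is not a measure for this count of genes.

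Of 20 long-studied E-box targets of MYC outside that list, 18 were tested, 8 rose, 4 fell and 6 did not pass. That is 44.4% that rose and 22.2% that fell, against 28.0% and 28.1% of all tested genes, with a median log2 fold change of 0.10 against -0.01. Over the 15 alternatives the count of rises ran from 6 to 9, and that of falls stayed at 4. CDC25A, a cell cycle phosphatase gene, rose by 0.82 on the log2 scale, CAD, the first enzyme of pyrimidine synthesis, by 0.60, and ODC1, the first enzyme of polyamine synthesis, by 0.52. EIF4E, the cap-binding translation factor, fell by 1.14, from a mean of 10.5 to 4.82 FPKM, LDHA, lactate dehydrogenase A, by 0.84, and SHMT2, a mitochondrial serine enzyme, by 0.40. Genes that MYC is known to hold down through MIZ1 or otherwise gave no single direction either: of 7, 5 were tested, THBS1 and GADD45A rose by 0.79 and 0.17, CDKN1A and NDRG1 fell by 0.78 and 1.17 on the log2 scale, and CDKN2B, at -0.06, was not past the test.

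**Figure D5:**
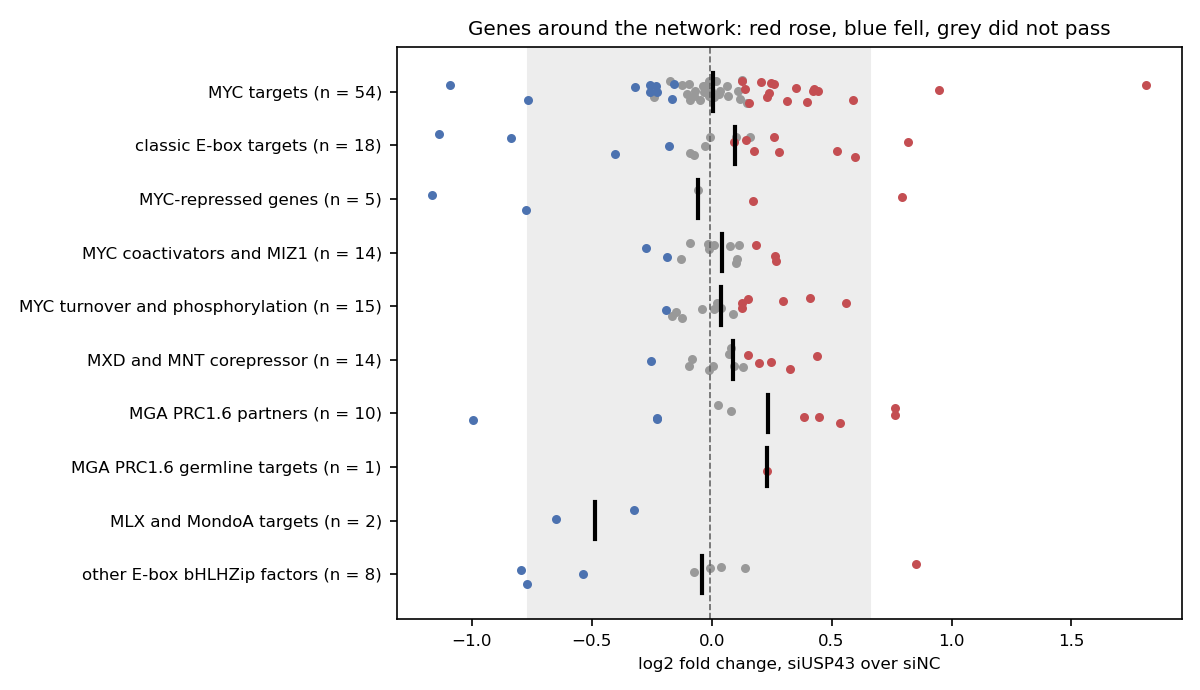
Log2 fold change of siUSP43 over siNC (x axis) of each tested gene in 10 lists around the network (y axis, n is the number tested), coloured by the edgeR call. Black bars are list medians, the dashed line is the median of all tested genes (-0.01) and the grey band spans their 5th to 95th percentile (-0.77 to 0.66). NOLC1 is the point at 1.81.

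Among the genes for MYC coactivators and MIZ1, log2 fold changes were at most 0.27 in size. Of 14 coactivator genes with MIZ1, all tested, 3 rose (21.4%), 2 fell (14.3%) and 9 did not pass (median 0.04). Of all tested genes 28.0% rose, 28.1% fell and 56.1% were called in either direction (median -0.01). ACTL6A, CDK9 and RUVBL1, a chromatin remodelling subunit, an elongation kinase and an ATPase of the TIP60 complex, rose by 0.27, 0.26 and 0.18. EP400 fell by 0.27 on the log2 scale, and TRRAP, the large scaffold that MYC binds directly, by 0.18. TRRAP no longer passed in 5 of 15 alternatives, among them those without siNC replicate 1, siNC replicate 2 or siUSP43 replicate 1 (adjusted p up to 0.0939). Of 14 genes of the SIN3 corepressor that MXD proteins and MNT bring in, all tested, 5 rose (35.7%), 1 fell (7.14%) and 8 did not pass (median 0.09). The same 28.0% and 28.1% of all tested genes stand against these shares. ARID4A, HDAC1 and RBBP7 rose by 0.44, 0.33 and 0.25, HDAC1 from a mean of 30.8 to 39.1 FPKM, and BRMS1 fell by 0.25. BRMS1 did not pass once siNC replicate 3 or siUSP43 replicate 1 was left out (adjusted p up to 0.0818).

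Of 16 genes for kinases, phosphatases, ligases and deubiquitinases that set MYC turnover, 15 were tested, 6 rose (40.0%), 1 fell (6.67%) and 8 did not pass (median 0.04), against the same 28.0% and 28.1% of all tested genes. PPP2R5A, a phosphatase subunit that removes a stabilising phosphate from MYC, rose by 0.56, from a mean of 8.27 to 12.3 FPKM. GSK3B, the kinase that marks MYC for degradation, rose by 0.41, and FBXW7, the ligase that reads that mark, by 0.30. The others that rose were SET, by 0.15, and the deubiquitinase genes USP7 and USP36, by 0.13 each. Genes of a ligase and of deubiquitinases were thus both among those that rose, USP7 and USP36 close to the threshold (edgeR, adjusted p = 0.0339 and 0.042). With a replicate block only PPP2R5A, GSK3B and FBXW7 of this list passed, and SET, USP7 and USP36 did not. GSK3A fell by 0.19. The calls of FBXW7 and GSK3A were lost in 5 and 6 of 15 alternatives, both of them without siNC replicate 2, siNC replicate 3 or siUSP43 replicate 3 (adjusted p up to 0.0892 and 0.0964). The count of calls in this list dropped to 3 without siNC replicate 2, to 4 without siNC replicate 3 and to 3 with a replicate block.

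Other factors of the same structural class that bind E-boxes included 3 that fell and 1 that rose. Of 13, 8 were tested, so 12.5% rose and 37.5% fell, against 28.0% and 28.1% of all tested genes (median -0.04 against -0.01). USF1 and USF2, ubiquitous E-box activators, fell by 0.79 and 0.54 on the log2 scale, USF1 from a mean of 17.6 to 10.3 FPKM. SREBF1, the lipogenic regulator, fell by 0.77, and TFAP4, a factor that MYC is known to induce, rose by 0.85, from a mean of 1.16 to 2.12 FPKM. Whether this class differs from the members was not tested. By the correlation of log2 counts scaled to library size over the 6 libraries, the genes most like MYC among 6165 with a mean of at least 5 FPKM were PTBP1 (r = 0.97), RCCD1 (r = 0.97) and NUDT19 (r = 0.96). None of these 3 passed the test between groups, though RCCD1 passed in 3 of 15 alternatives (both limma fits and without siUSP43 replicate 3, adjusted p down to 0.0351). Of the genes compared, 34 had an r over 0.9, and the points share their libraries' depth and composition.

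Of the 47 non-members that the naming rule selects, namely USP43, genes of the pathway lists and the 3 genes most like MYC, 11 overlap another tested gene: AIMP2, TMEM97, LDHA, ACTL6A, RUVBL1, TRRAP, GSK3B, GSK3A, RBBP7, CBX3 and SREBF1, and the origin of their reads is uncertain to that extent. Cell type markers, SET, USP7 and USP36 were not part of that check. Among the members this holds for MAX, MXD1, MXD3 and, over its last bases with PSMC3IP, MLX.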

How the data were processed

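The authors deposited 1 table that holds, per the file headers, a raw read count and an FPKM value of every gene in 6 libraries. The raw data were handled with cutadapt 2.6 and HISAT2 2.2.1 on GRCh38, per the submitters' processing notes. Library construction used 2 μg of RNA, per the labels' protocols. The counter, annotation release and strand setting are not given in the sources used here. Since the design was written to use counts if present, edgeR 4.0.16 (R 4.3.3) was fitted with TMM scaling on all-gene totals to the 11417 genes whose FPKM averaged 1 or more, with group as the only term. Calls are two-sided, at an adjusted p (Benjamini-Hochberg) under 0.05. SEs and 95% intervals come from that fit. DESeq2 1.42.0, limma 3.58.1 on log2(FPKM + 1) or log2(FPKM + 0.1), other scalings and filters, a fit with a replicate block and fits that leave out 1 library were alternatives. The fit was checked on simulated counts in which 200 genes were given known changes. It recovered 36.8% of 1.2-fold and 92.4% of 1.5-fold changes, and 7.06% of its calls were false, on average. Far more genes were called in the data, so these shares need not hold there. Depth was 21430574 to 25577200 counts a library.

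Members and lists were chosen with earlier results of these data known. Named genes are the members, USP43, up to 3 called genes with the largest rise and 3 with the largest fall of each list, every tested gene of lists of 7 or fewer, and the 3 genes most correlated with MYC. Lists were written from general knowledge, the largest after a public hallmark set of MYC targets with MYC left out. SET, USP7 and USP36 are named beyond the naming rule. The motif searches were chosen after the values were seen. Only 8587 of the tested genes matched a promoter window, under 80%, so E-box shares were not compared with tested genes at large.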

Additional observations from a re-analysis of the deposited data

How the results depend on the processing

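Over 15 alternatives, 9 of the 10 members kept their direction where called and their side of the threshold: MXD4 stayed between -0.65 and -0.47 on the log2 scale, MLXIP between -0.43 and -0.32 and MGA between -0.39 and -0.18. MNT lost its call in 7, and the cause was not tested. Members called numbered 3 to 4, MYC targets called 19 to 28 and all genes called 5428 to 7907. With each library left out in turn these ran from 3 to 4, 19 to 28 and 5428 to 6548. Of 47 non-members selected by the naming rule, 40 kept their side of the threshold in all alternatives. A change of sign with a call in either fit was seen for 0 of them, while CDKN2B, never called, ran from -0.15 to 0.06. The replicate numbers were not taken as pairs, since the labels do not say that they pair samples. Same-numbered siNC and siUSP43 libraries did not deviate together either (r from -0.261 to -0.013 over 3 pairs). With a replicate block 3 members, 21 MYC targets and 5616 genes were called. With 148 to 2801 counts a library, the members' 95% intervals were narrowest for MAX and widest for MXD1, the member with the fewest counts.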
